A study of Mus musculus with 5 samples.

Results

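Sfi1, Drg1, Pisd and the Pisd pseudogenes Pisd-ps1 and Pisd-ps2 are 5 mouse genes to which the authors' peak lists, from chromatin immunoprecipitation and sequencing (ChIP-seq), assign several peaks each. A peak counted as a member when the authors' peak list named one of these genes as its 5′ or 3′ neighbour at a distance of 0 bp. This gave 112 of the 2548 listed peaks, with 36 of 857 in the WT H3K27ac list, 40 of 844 in the KO H3K27ac list and 36 of 847 in the WT EGR1 list. The genes were chosen by their peaks in these same lists, that is, on the number and position of the peaks, so peak numbers, positions, scores and overlaps are given as description, without tests.

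The cells were dendritic cells grown from the bone marrow of C57BL/6J mice, either wild type (WT) or deficient in Egr1 (KO). The marrow was cultured with GM-CSF at 10 ng/ml, and the cells were collected on day 6. All groups, both input groups included, then received LPS at 100 ng/ml with L-(+)-lactic acid at 20 mM for 24 h, so no group was unstimulated. H3K27ac, the acetylated form of histone H3 lysine 27, was precipitated from WT and from KO cells, and EGR1, a zinc finger transcription factor, from WT cells. Each of these 3 groups was 1 library with 1 list of peaks, and the 2 input DNA groups were not analysed here. The labels do not say how Egr1 was disrupted or how many mice gave the cells. Nothing replicates any of the 3 libraries, and without read counts the depth behind a peak is unknown.

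SFI1 is a centrin-binding protein of the centrosome, and DRG1 is a GTPase of the developmentally regulated GTP-binding family that acts in translation. PISD is the mitochondrial enzyme that converts phosphatidylserine to phosphatidylethanolamine, a main lipid of mitochondrial membranes. H3K27ac is known for marking active promoters and enhancers, and EGR1 for binding GC-rich sites near gene starts. Reads from near-identical copies of a gene can align to more than 1 place. How the authors treated such reads was not given in the sources used here, and the peak counts at these genes are uncertain in that respect.

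On mm10, RefSeq (table of build GRCm38.p6, the same assembly) places Sfi1 at chr11:3131850-3203347 and Drg1 at chr11:3249907-3266464. Pisd lies at chr5:32736301-32785642 on the minus strand. The transcribed pseudogenes Pisd-ps1 and Pisd-ps2 lie at chr11:3124002-3131945, overlapping the lower end of Sfi1, and at chr17:3064318-3084183. Exons and introns were not used here, so a peak is described only as inside or outside a gene. Since no genome sequence was used, the sequence shared between these genes was not measured.

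Of these genes, Pisd alone has promoter windows in the RefSeq table, so peaks in the others could not be set against their own gene's start. Of the regions in these genes with a peak, 1 overlapped a window, that of another gene. A second window shows a start of Pisd, where no peak was listed. Both are printed 5′ to 3′ as the 250 bases before a start listed in RefSeq. The Pisd window reaches slightly inside the gene's span, whose upper end is at 32785642. The first is the window of Gm33862, a long noncoding RNA gene inside Sfi1, at chr11:3136826-3137075 on the plus strand, with the part covered by the WT H3K27ac peak at chr11:3136594-3137048 in capitals. The second is the window of the upper of the Pisd starts in RefSeq, at chr5:32785627-32785876 on the minus strand, with every CG dinucleotide in capitals.
Gm33862: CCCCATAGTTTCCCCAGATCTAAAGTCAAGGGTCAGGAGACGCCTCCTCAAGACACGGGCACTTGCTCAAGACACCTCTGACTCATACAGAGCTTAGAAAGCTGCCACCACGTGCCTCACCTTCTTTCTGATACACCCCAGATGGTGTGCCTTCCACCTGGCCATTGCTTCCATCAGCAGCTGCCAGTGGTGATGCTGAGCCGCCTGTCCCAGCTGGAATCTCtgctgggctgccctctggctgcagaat
Pisd: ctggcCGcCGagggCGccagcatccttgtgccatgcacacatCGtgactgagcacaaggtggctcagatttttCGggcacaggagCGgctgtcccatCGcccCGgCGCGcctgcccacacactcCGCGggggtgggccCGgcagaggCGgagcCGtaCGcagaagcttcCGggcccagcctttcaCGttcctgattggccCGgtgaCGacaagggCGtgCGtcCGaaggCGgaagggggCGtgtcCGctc
The Gm33862 window is 56.4% G and C with 4 CG dinucleotides, and the Pisd window is 68.8% G and C with 26. Across all 32851 promoter windows of the table the medians were 52.4% and 6. The EGR motif GCGTGGGCG, searched on both strands, was in neither window and in 0.536% of all windows. The looser form GCGNGGGCG, which includes the first, was also in neither and in 4.7% of all windows. The nearest peak to this Pisd window lay 47383 bp away for WT H3K27ac, 47371 bp for KO H3K27ac and 47389 bp for WT EGR1. Peaks at the Gm33862 window overlapped it by 223 bp for WT H3K27ac, 208 bp for KO H3K27ac and 223 bp for WT EGR1.

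Few protein-coding genes of the RefSeq table had a listed peak inside them by the authors' distances. Of 21900, the shares were 0.648% for WT H3K27ac, 0.648% for KO H3K27ac and 0.653% for WT EGR1. Lists of a few markers are therefore too short to check the labelled cell type. Of 8 dendritic cell markers, a single one, the GM-CSF receptor gene Csf2ra, had a peak inside it, with scores of 2.26 for WT H3K27ac, 1.91 for KO H3K27ac and 2.17 for WT EGR1. None of 4 macrophage, 3 neutrophil and 3 T and B cell markers had a peak inside or within 2 kb in any list. Egr1 was named as a neighbour of 0 peaks, so the lists do not check the genotype labels.

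Merged over the lists, the 112 peaks formed 43 separate regions, and 33 of them (76.7%) were listed in all 3 libraries. Over the whole series the share was 75.4% of 964 regions, so in this share these genes were close to the background. The other 10 regions were listed in 1 genotype, beside 211 of the 964 (21.9%) in the whole series. Of the 10, 3 were in both WT lists and not in the KO list, beside 91 regions (9.44%) of the series. The remaining 7 of the 43 were in the KO list alone, on few regions a larger share than the 86 of 964 (8.92%) in the series. No region of these genes was in WT H3K27ac alone or in WT EGR1 alone, and in the series these were 21 (2.18%) and 13 (1.35%) regions.

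Sfi1 carried most of the peaks. The peak shape score used here is the authors' own value for each peak. Its scale within a library was not given in the sources used here, and the lowest score listed is 1.65, so scores are set side by side only as description. Inside Sfi1 were 27 regions, of which 21 were in all 3 lists, 2 in both WT lists and 4 in the KO list alone. The median score of the peaks in Sfi1 was 2.69 for WT H3K27ac (n = 23 peaks), 2.63 for KO H3K27ac (n = 25) and 2.54 for WT EGR1 (n = 23). The medians over the whole lists were 2.86, 2.96 and 2.85 in the same order, each slightly above the median in Sfi1.

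The highest score in Sfi1 was at chr11:3179994-3180338 (WT H3K27ac coordinates, as below), at 7.91 for WT H3K27ac, 7.74 for KO H3K27ac and 7.83 for WT EGR1. It ranked 117 for WT H3K27ac, 124 for KO H3K27ac and 115 for WT EGR1. The next in WT H3K27ac was at chr11:3193156-3193525, with 6.22, 5.28 and 6.06 in the same order. Both had their lowest score in the KO list. The peak at chr11:3168597-3169067 was highest in the KO list, with 5.26 for WT H3K27ac, 6.12 for KO H3K27ac and 5.19 for WT EGR1. The peak at chr11:3135509-3135854 had 4.96, 4.62 and 5.02.

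**Figure D1:**
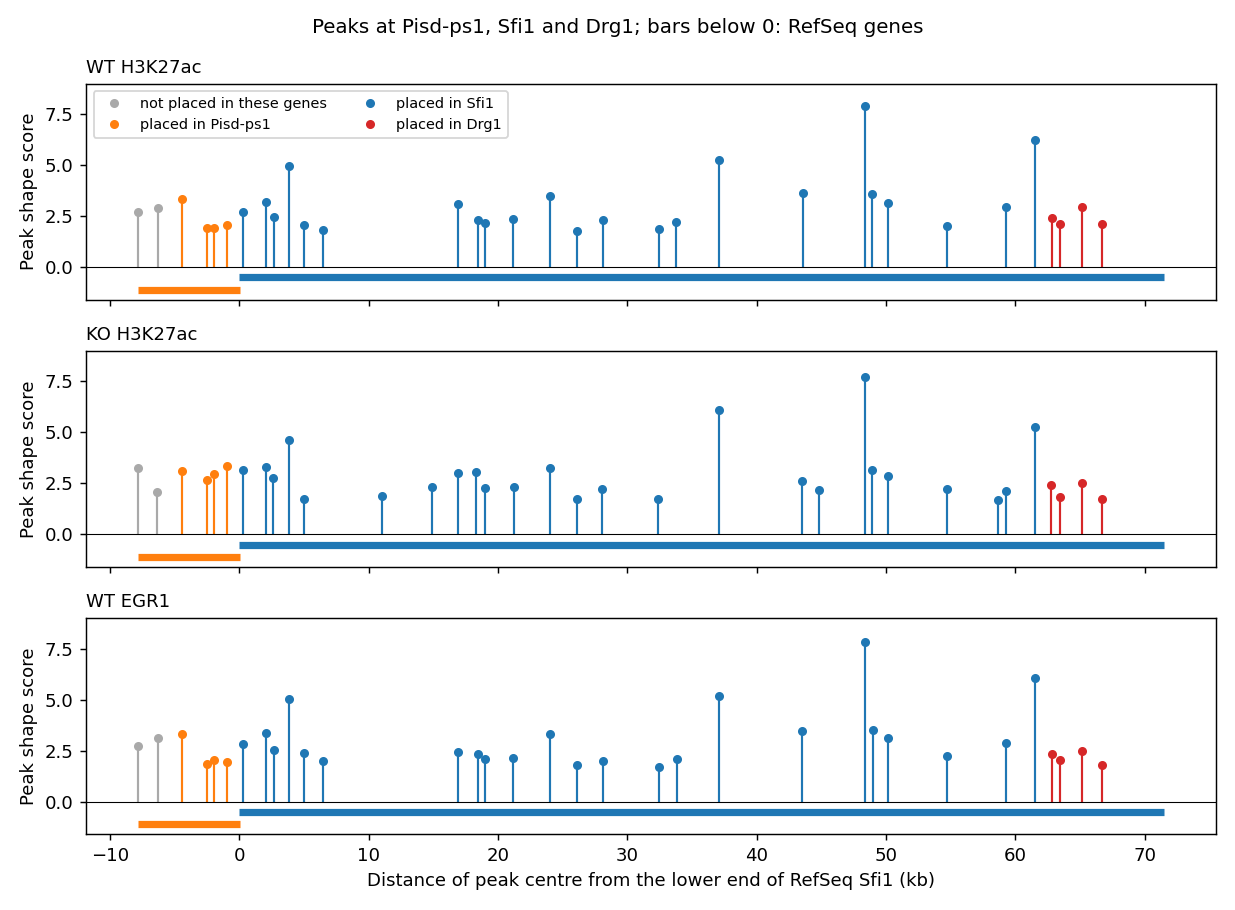
Peaks at Pisd-ps1, Sfi1 and the region the authors place in Drg1, one panel per list. The horizontal axis is the distance of a peak centre from the lower end of RefSeq Sfi1 in kb, the height of each stem is the authors' peak shape score, colours give the gene the authors name at distance 0, and grey stems lie outside these genes by the authors' distances. The peaks placed in Drg1 sit inside the RefSeq bar of Sfi1, the highest stem is the same peak in each panel (7.91, 7.74 and 7.83), and the KO panel alone has stems in the empty stretch of the WT panels.

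Peaks were listed from the lower end of Sfi1 to a few kb below its upper end. The peaks inside RefSeq Sfi1, those placed in Drg1 included, numbered 27 for WT H3K27ac, 29 for KO H3K27ac and 27 for WT EGR1, or 3.78, 4.06 and 3.78 per 10 kb. They covered 13.5%, 13.6% and 13.8% of the gene's length. By peak centre, 15 lay in the lower 50% of the gene and 12 in the upper 50% in WT H3K27ac, against 15 and 14 in KO H3K27ac and 15 and 12 in WT EGR1. The lowest 10% of the gene held 6 centres for WT H3K27ac, 5 for KO H3K27ac and 6 for WT EGR1, and the highest 10% held 2 in each list. The last peak ended 4660 bp below the upper end of the gene in WT H3K27ac, 4692 bp below it in KO H3K27ac and 4657 bp below it in WT EGR1.

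The KO list differed from both WT lists in the longest stretch of Sfi1 without a peak. In WT H3K27ac it was the 9922 bp from 3138624 to 3148547 on chromosome 11, and in WT EGR1 the 9941 bp from 3138598 to 3148540. The KO list had 2 peaks there, at chr11:3142722-3143033 with a score of 1.87 and at chr11:3146607-3146965 with 2.31. Its own longest stretch was 6138 bp, from 3169056 to 3175195. The other KO peaks in Sfi1 with no WT partner were at chr11:3176451-3176790 (2.17), 865 bp from the nearest WT H3K27ac peak, and at chr11:3190341-3190617 (1.70), 313 bp from it.

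The regions of Sfi1 in both WT lists and not in the KO list were also low. That at chr11:3138187-3138624, inside Gm33862, scored 1.84 in WT H3K27ac and 2 in WT EGR1, and lay 1153 bp from the nearest KO peak. That at chr11:3165436-3165803 scored 2.23 and 2.08, with the region over both lists 1037 bp from a KO peak. All 6 regions of Sfi1 found in 1 genotype thus scored 2.31 or lower. Over the whole series, 53.8% of WT H3K27ac peaks with scores under 2 had a KO partner, against 96.5% of those with 2 or more. For KO peaks with a WT H3K27ac partner the shares were 60.4% and 95.9%. Low scores also occurred in shared Sfi1 regions, such as chr11:3157634-3158165 with 1.80 for WT H3K27ac, 1.75 for KO H3K27ac and 1.77 for WT EGR1.

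Smaller annotated genes inside Sfi1 held a few of these peaks. Gm11400, a pseudogene at chr11:3149476-3151017, overlapped 2 of them. The first, chr11:3150073-3150405, scored 2.31 for WT H3K27ac, 3.04 for KO H3K27ac and 2.32 for WT EGR1. The second, chr11:3150794-3151137, scored 2.16, 2.26 and 2.09. The peak over the Gm33862 window shown above scored 2.08 for WT H3K27ac, 1.75 for KO H3K27ac and 2.38 for WT EGR1.

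Neighbouring peak centres in Sfi1 lay a median of 2063.5 bp apart in WT H3K27ac (562 to 10441 bp, n = 22 spacings), 2068.5 bp in KO H3K27ac (567 to 6442 bp, n = 24) and 2062 bp in WT EGR1 (562 to 10427 bp, n = 22). The close agreement between WT H3K27ac and WT EGR1 restates that the same regions were listed in both. Pairs of peaks under 700 bp apart occurred in Sfi1, Drg1, Pisd and Pisd-ps1 in every list, and not between peaks placed in Pisd-ps2. In WT H3K27ac there were 6 such pairs. Of these, 3 were in Sfi1, at 590, 562 and 606 bp, and the others were 593 bp apart in Drg1, 489 bp in Pisd and 527 bp in Pisd-ps1. KO H3K27ac had 7 such pairs, from 474 bp in Pisd to 675 bp in Sfi1, and WT EGR1 had 6, from 455 bp in Pisd to 616 bp in Sfi1.

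**Figure D2:**
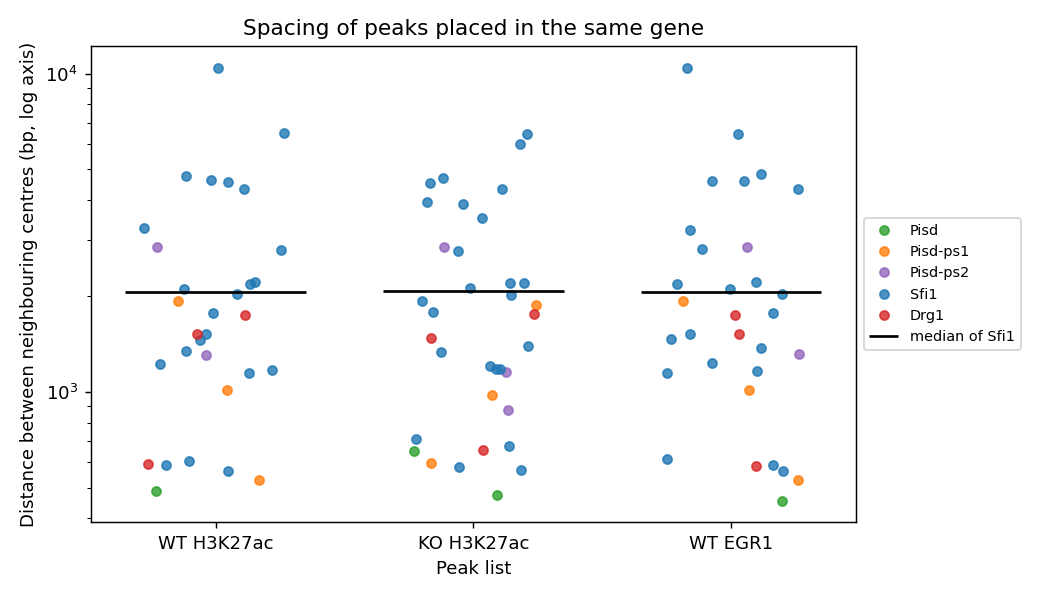
Distance between the centres of neighbouring peaks placed in the same gene, in bp on a log axis, for each list; points are pairs of neighbours, colours are genes, sideways position within a list carries no meaning, and black lines are the medians for Sfi1. The medians lie at 2063.5, 2068.5 and 2062 bp, and the shortest distances belong to Pisd.

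Drg1 had 4 peaks in each list by the authors' columns, and all 12 lay outside the RefSeq gene. They lay 51220 to 55067 bp below its lower end in WT H3K27ac, and every one was inside RefSeq Sfi1. The authors' columns name at most 1 gene on each side of a peak, and no peak had 2 of the 5 genes at distance 0. The gene model behind the authors' Drg1 was not given in the sources used here. By RefSeq coordinates Drg1 had 0 peaks in each list.

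The peaks placed in Drg1 were all found in each list. The first, chr11:3194516-3194840, scored 2.41 for WT H3K27ac, 2.40 for KO H3K27ac and 2.31 for WT EGR1. The second, chr11:3195138-3195471, scored 2.14, 1.82 and 2.04 in the same order. The third, chr11:3196811-3197166, scored 2.97, 2.50 and 2.49. The fourth, chr11:3198327-3198687, scored 2.11, 1.76 and 1.81. The WT H3K27ac score was the highest of the 3 at each of these peaks, and at the first by 0.01 over KO.

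Pisd had its peaks at the end of the gene. The gene is on the minus strand, so its lower end is its 3′ end, and the WT H3K27ac peaks had their centres 2.7% and 3.7% of the gene's length above that end. The first, chr5:32737532-32737799, scored 1.97 for WT H3K27ac, 2.98 for KO H3K27ac and 2.05 for WT EGR1. It ended at the same base in all 3 lists, which was true of no other of the 33 regions found in each. The second, chr5:32737988-32738244, scored 1.80, 1.86 and 1.77. Of the Pisd start windows in RefSeq, the nearer, at chr5:32746343-32746592, lay 8099 bp from the closest WT H3K27ac peak. A further peak, chr5:32736864-32737161, was in the KO list alone, with a score of 2.35, 370 bp from the nearest WT H3K27ac peak. KO had the highest score at the first and second of these regions, and the WT lists had no peak at the third.

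Peaks continued below Pisd into the adjoining pseudogene Gm2420 (chr5:32720391-32736397). The nearest, chr5:32733932-32734281, lay 2019 bp from Pisd and scored 4.06 for WT H3K27ac, 4.72 for KO H3K27ac and 3.90 for WT EGR1. It scored above every peak inside Pisd in each list. Within 30 kb of Pisd and outside it were 3 peaks for WT H3K27ac, 4 for KO H3K27ac and 3 for WT EGR1.

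Pisd-ps1 had 4 peaks in each list, all shared. The lowest in position, chr11:3127131-3127605, scored 3.33 for WT H3K27ac, 3.12 for KO H3K27ac and 3.30 for WT EGR1. The other 3 had their highest score in the KO list. They were chr11:3129232-3129538 with 1.90 for WT H3K27ac, 2.69 for KO H3K27ac and 1.83 for WT EGR1, and chr11:3129798-3130099 with 1.92, 2.96 and 2.04. The last was chr11:3130780-3131084 with 2.09, 3.35 and 1.94. The median KO minus WT difference in score was 0.92 over these 4 pairs, from -0.21 to 1.26, beside -0.03 over all 739 matched pairs of the series, which ran from -3.59 to 2.30.

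The extent of Pisd-ps1 depends on the annotation. The authors' distances place it from 3125903 to 3131005 on chromosome 11, within the longer RefSeq gene. The peak just outside by the authors' distances lay 202 bp from it in WT H3K27ac (chr11:3125378-3125701) and scored 2.89, with 2.08 in KO H3K27ac and 3.10 in WT EGR1. By RefSeq this peak and the next one out, chr11:3123823-3124265, overlap the pseudogene, which then has 6 peaks in each list. The peak just inside, chr11:3127131-3127605, is the one that scored 3.33. Farther out, at chr11:3100321-3100659, a peak 25244 bp from Pisd-ps1 scored 18.36 for WT H3K27ac, 18.31 for KO H3K27ac and 18.27 for WT EGR1, above all 112 peaks inside the 5 genes.

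Pisd-ps2 had its peaks toward its upper end and had the smallest share of regions in all 3 lists, with 2 of 5, next to 2 of 3 in Pisd. These counts rest on few regions, and over the whole series the share in all 3 lists was 75.4%. The first of the shared regions, chr17:3077755-3078084, scored 4.61 for WT H3K27ac, 4 for KO H3K27ac and 4.52 for WT EGR1. The second, chr17:3080618-3080922, scored 2.75, 2.65 and 2.77. Above these the lists parted. The WT lists had a peak at chr17:3081998-3082332 that scored 1.70 in H3K27ac and 1.75 for EGR1, and the KO list had 1 on either side of it. These KO peaks were chr17:3081501-3081754, with a score of 2.10, and chr17:3082540-3082891, with 1.68, at 243 and 207 bp from the WT H3K27ac peak. A peak just beyond the gene, 11 bp from its end at chr17:3084195-3084544, scored 3.25 for WT H3K27ac, 3.08 for KO H3K27ac and 3.12 for WT EGR1, and is no member by the rule.

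**Figure D3:**
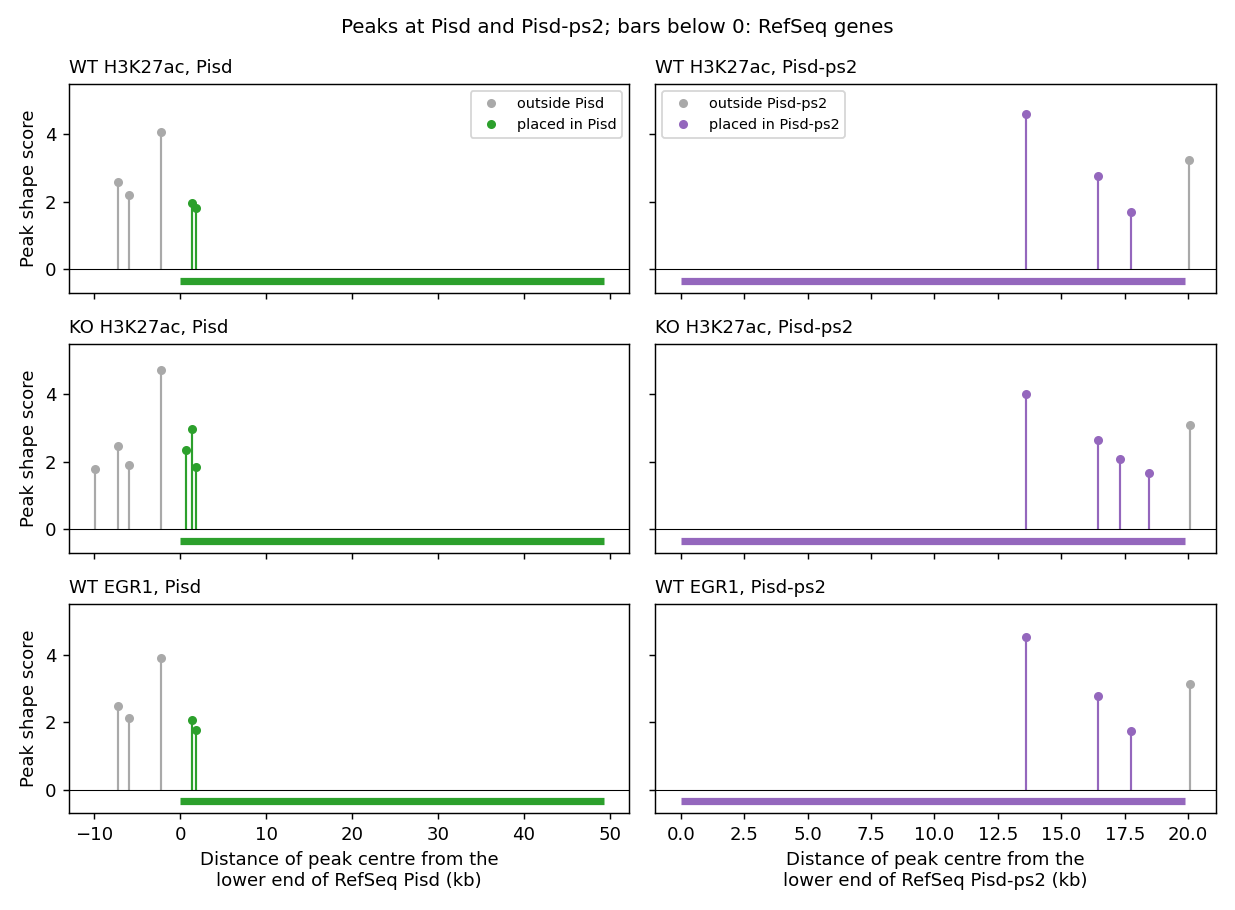
Peaks at Pisd (left) and Pisd-ps2 (right), one row per list. The horizontal axis is the distance of a peak centre from the lower end of the RefSeq gene in kb, the height is the peak shape score, coloured stems are peaks placed in the gene, grey stems lie outside it, and bars below 0 are the RefSeq genes. In every row the Pisd stems sit at the lower end of the gene and the tallest grey stem (4.06, 4.72 and 3.90) lies below it.

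The H3K27ac lists of the 2 genotypes were then compared, which asks which of these peaks are listed without Egr1. A KO partner was found for 33 of the 36 WT H3K27ac peaks, or 91.7%, with a 95% Wilson interval of 78.2 to 97.1 that covers counting error over peaks only. The share over all 857 WT peaks was 86.8%. A WT H3K27ac partner was found for 33 of the 40 KO peaks, or 82.5% (68.1 to 91.3), beside 88.3% of all 844. The 10 regions found in 1 genotype, whose share of the whole series is given above, were in Sfi1 (6), Pisd-ps2 (3) and Pisd (1), and none was in Drg1 or Pisd-ps1.

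Among the 33 matched pairs, the KO score was higher than the WT score in 12 and lower in 21. Over all 739 matched pairs of the series it was higher in 45.7%. By the gene the authors name, KO was the higher in 7 of 21 pairs in Sfi1, 0 of 4 in Drg1 and 2 of 2 in Pisd. It was the higher in 3 of 4 in Pisd-ps1 and 0 of 2 in Pisd-ps2. The 4 pairs placed in Drg1 lie inside RefSeq Sfi1, as described above. The direction thus varied between the genes, on few pairs outside Sfi1. KO peaks were shorter than their WT partner in 23 of 33 pairs, beside 80.8% of all matched pairs, with a median difference, KO minus WT, of -6 bp here and -12 bp over the series.

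**Figure D4:**
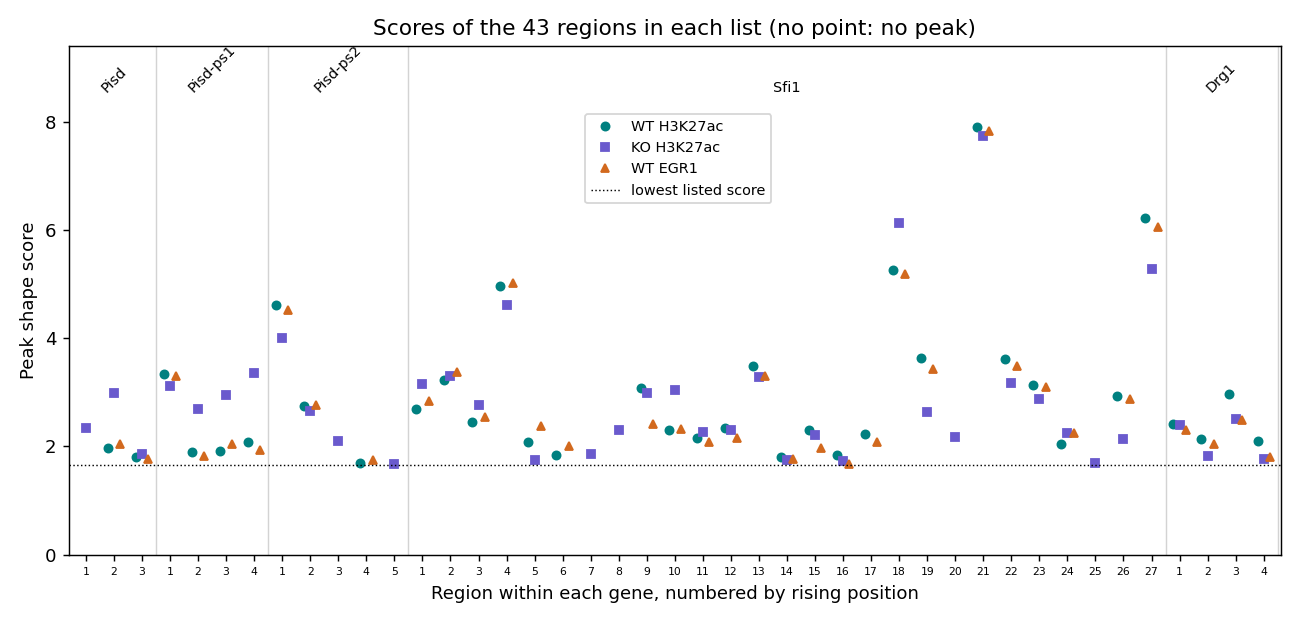
Peak shape score of each of the 43 regions in WT H3K27ac (circles), KO H3K27ac (squares) and WT EGR1 (triangles). Regions are numbered by rising position within each gene on the horizontal axis, a missing symbol means that the list has no peak there, and the dotted line is the lowest listed score, 1.65. Circles and triangles differ by at most 0.67, and squares stand above both at 3 of the 4 regions of Pisd-ps1.

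EGR1 peaks were compared with both H3K27ac lists, which asks whether regions listed for the factor are listed for the mark. All 36 EGR1 peaks overlapped a WT H3K27ac peak (95% Wilson interval 90.4 to 100), beside 97.0% of all 847 EGR1 peaks, and all 36 WT H3K27ac peaks overlapped an EGR1 peak, beside 95.9%. A KO H3K27ac partner was found for 33 of the same 36 EGR1 peaks, or 91.7% (78.2 to 97.1), beside 87.7% over the EGR1 list. In the other direction, 33 of the 40 KO peaks had an EGR1 partner, beside 88.2% over the KO list. At these genes the EGR1 and WT H3K27ac lists thus held the same regions, near the shares of 97.0% and 95.9% over the whole lists. Centres were at the same base in 19 of the 36 matched pairs of EGR1 and WT H3K27ac, beside 36.6% of all 814 such pairs. They were at the same base in 2 of the 33 matched pairs of WT and KO H3K27ac, beside 3.38% of all pairs.

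Scores of EGR1 and WT H3K27ac differed by at most 0.67 in these 36 pairs, the largest gap being at chr11:3148547-3148921 in Sfi1, with 3.08 for WT H3K27ac, 2.99 for KO H3K27ac and 2.41 for WT EGR1. Across the 36 pairs Spearman's rho of the scores was 0.95, and across the 33 pairs of WT and KO H3K27ac it was 0.72. Over all matched pairs of the series the values were 0.99 and 0.95. The range of scores differed, with a maximum in WT H3K27ac of 7.91 in these genes and 35.26 in the whole list. The values for these genes and for the series are therefore not directly comparable. These are correlations across peaks of the same libraries, which are not independent, and carry no p-value.

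The share of peaks above a fixed score was also close to the background for scores of 2 and below it for scores of 3. A score of 2 or more was found in 28 of 36 WT H3K27ac peaks, 31 of 40 KO H3K27ac peaks and 28 of 36 WT EGR1 peaks. In the whole lists it was found in 77.2%, 78.4% and 77.0%. A score of 3 or more was found in 12 of 36, 12 of 40 and 11 of 36 peaks of these genes, beside 48.0%, 48.7% and 48.1% of the lists. The peaks of a list are not independent of each other, and no test was made.

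Genes related to these 5 by function or position were counted by the same rule, beside the shares of 0.648% to 0.653% of protein-coding genes given above. With shares this low, nothing particular to these short lists is read from their counts. Of 20 centrosome and centrin genes, among them the centrin genes Cetn2 and Cetn3, 1 had a peak inside it. This was Cdk5rap2, which encodes a centrosomal protein that binds gamma-tubulin complexes. Its single peak scored 19.85 for WT H3K27ac, 20.55 for KO H3K27ac and 19.53 for WT EGR1, far above any peak in Sfi1. None of 8 genes for GTPases related to DRG1 or for its partners, such as Drg2 and Zc3h15, had a peak inside or within 2 kb. The same held for all 17 genes of phosphatidylserine and phosphatidylethanolamine metabolism, among them the phosphatidylserine synthase genes Ptdss1 and Ptdss2. It also held for a list of 16 neighbours, 12 on chromosome 11 and 4 on chromosome 5, among them Eif4enif1, which overlaps the upper end of Sfi1 in RefSeq. Gm2420 and Gm11400, which do carry peaks as described above, are not in that list. Genes without a called peak may still carry signal.

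By the number of peaks inside a gene, summed over the 3 lists, Sfi1 ranked second of all genes with 71. The 3 other genes with the most were the predicted gene Gm26870 with 167, Tmem267 with 36 and Tcte2 with 28. Like Sfi1, each had nearly the same number in every list, at 53, 60 and 54 for Gm26870, 12 in each for Tmem267, and 9, 10 and 9 for Tcte2 (WT H3K27ac, KO H3K27ac, WT EGR1). Only peak number was compared between these genes and Sfi1. Of the 112 peaks, the 105 on chromosomes 11 and 17 lay within 500 kb of the first listed peak of their chromosome, and the 7 in Pisd did not. This follows from where the chosen genes lie. The share over all listed peaks was not counted, so nothing particular to these genes is read from it.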

How the data were processed

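Called peaks for H3K27ac in WT and KO cells and for EGR1 in WT cells were analysed. The authors deposited 1 list per sample, on mm10 per the submitters' processing notes, with the aligner, peak caller, filters and use of input not given in the sources used here. The columns give, per the file headers, each peak's region, centre and length, the authors' score for its shape, its p-value and its neighbouring genes. The deposited score was used as it stands, and no deposited p-value was above 0.05. Depth is unknown without counts, and Wilson intervals cover counting error over peaks only.

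Groups came from the sample titles. Peaks overlapped when they shared at least 1 bp, and matched pairs had exactly 1 partner in each direction. Regions were unions of overlapping peaks over the 3 lists. Gene positions, biotypes and promoter windows came from RefSeq tables of GRCm38.p6, in which all 5 genes were found, Pisd alone of them with promoter windows. The named genes were these 5 and the 3 other genes with the most peaks inside, together with members of the gene lists, flanking genes and Egr1, which were added after values were seen. The members and gene lists were chosen with earlier results of these data known. Alternatives were RefSeq coordinates, a distance of up to 2 kb, scores of 2 or more, an overlap of 50% of both peaks, centres within 100 bp, gaps in place of spacings, and every overlapping pair. Overlap functions were tested on simulated data. Scripts ran in Python 3.11.15 with scipy 1.17.1, numpy 2.4.6, matplotlib 3.10.9 and pandas 2.3.3.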

Additional observations from a re-analysis of the deposited data

How the results depend on the processing

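The numbers of peaks at these genes stayed within 1.5 times the reported ones under every alternative run. They ran from 28 with scores of 2 or more to 39 with distances of up to 2 kb for WT H3K27ac and for WT EGR1, and from 31 to 43 for KO H3K27ac. RefSeq coordinates gave 38, 42 and 38, with Drg1 at 0. The share of WT H3K27ac peaks with a KO partner ran from 88.9% to 96.4% over the settings. For WT EGR1 peaks it was 100% with a WT H3K27ac partner in each, and 88.9% to 92.9% with a KO partner. The settings reuse largely the same peaks of the same libraries. The shares in the reverse direction were not rerun. With scores of 2 or more, the median spacing in Sfi1 was 2219 bp in WT H3K27ac, 2191 bp in KO H3K27ac and 2177 bp in WT EGR1. Measured as gaps between peaks it was 1665.5, 1665 and 1651 bp. The median KO minus WT length was -3.5 bp with scores of 2 or more in both lists. No paired analysis was possible because each group has 1 library and no test was made. Unknown depth and unstated handling of reads with several matches limit every value.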
